A study of Arabidopsis thaliana with 18 samples.

Results

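The class III peroxidases of Arabidopsis thaliana roots were followed here across both genotypes and all media of an RNA-seq series. The 60 genes were chosen by name, as members of the secreted plant peroxidase family, and each was taken from the row of the normalized count table that carried its locus identifier, or from the row with the highest mean where 2 or 3 rows did (11 genes). The 60 genes do not cover the whole family, so counts, sums and shares below are for these genes only. A row was found for 59 of the 60 genes among the 35197 rows of the table. Of these, 56 passed the minimum of 5 reads over all 18 libraries that the tests required, among 23760 rows that did. PRX72 was not analysed here. AT1G24110, AT4G17690 and AT5G58400 did not pass, AT1G24110 being at 0 in every library and the other two having a read in 1 library each.

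Class III peroxidases are heme enzymes that plant cells secrete into the wall. With hydrogen peroxide they oxidize phenolic compounds, which cross-links lignin and wall proteins and stiffens the wall, and they can also release reactive oxygen that loosens it. In roots, particular members are known from root hairs, from the endodermis with its lignified Casparian strip, from differentiating xylem and from the response to wounding and pathogens. Their substrate is supplied in part by the NADPH oxidases of the RBOH family, through superoxide and superoxide dismutases, and the transcription factor UPB1 is known as a repressor of several peroxidases where root cells stop dividing and elongate.

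The lpcat seedlings carried the lpcat1 and lpcat2-2 lesions together in the Col-0 background and so had mutations in both acyltransferases that return lysophosphatidylcholine to phosphatidylcholine, and the wild type (WT) was Col-0. Roots came from seedlings that were 5 days old. The medium was ½ MS alone (control), with 20 µg/mL lysoPAF, an ether-linked analog of lysophosphatidylcholine, or with 20 µg/mL lysoPAF plus ONO. ONO is the phospholipase A2 inhibitor ONO-RS-082, at 50 µM by the sample labels. The legend of the study's RNA-seq figure gives this dose in µg/mL, and the difference was not resolved. Each of the 6 groups had 3 libraries, lpcat and WT on each medium. The labels do not say that the 3 came from separate cultures, so p-values measure the spread between these libraries, which may be technical. All libraries are bulk root RNA, in which fewer cells of a type and less RNA per cell cannot be told apart.

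The libraries held 8681898 to 16767002 reads in genes. LPCAT1 had 59.1, 72.2 and 47.3 normalized counts in lpcat roots on control medium, against 295, 247 and 250.4 in WT roots, and it was lower in lpcat in all 3 media. LPCAT2 was higher in lpcat, at 435, 534 and 485 normalized counts on control medium, against 197, 234 and 218 in WT, so its counts do not mark the mutant. The library lpcat control replicate 2 stood apart from replicates 1 and 3 of its group: on the first principal component it lay at 32.5, beside the lpcat lysoPAF libraries at 30.9 to 37.6, while lpcat control replicates 1 and 3 lay at -31.2 and -34.4. Among the 56 peroxidases it was nearer to the lpcat lysoPAF mean than to the mean of the other lpcat control libraries for 52. It is kept here under its label, and whether it was exchanged or mislabelled was not tested. Counts of peroxidases and of listed genes that rest on the lpcat control group are given with and without it. The spread of each gene was estimated over all 18 libraries, so this library also enters the tests of comparisons without its group. Those comparisons were fitted without it only where the compared libraries were fitted alone. The root markers PYK10 and TIP2;3 were detected in every library, PYK10 at no less than 82423 normalized counts, while of the 4 leaf genes RBCS1A ranged over 223 to 2241 normalized counts, RCA over 127 to 592, CAB2 up to 159 and CA1 up to 126. None of the 4 was called in limma with all libraries; without lpcat control replicate 2 RCA was higher in lpcat than in WT on control medium (0.91, adjusted p = 0.0162), and RBCS1A and RCA were lower on lysoPAF than on control medium in lpcat (-1.90 and -1.46), on the log2 scale. Their part in the peroxidase results was not tested.

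Several of the peroxidases are neighbouring copies of one another, and how alike their transcripts are decides whether reads can be assigned to one of them. The coding stretches below, of 60 bases each, were read from the RefSeq TAIR10.1 genome, and capitals mark the bases at which the copies of a pair differ. They are shown because these pairs return in the results, where often only one copy of a pair was called. For AT1G05240 and PRX2 (AT1G05250) all 978 coding bases were the same and no capital occurs. For the other pairs the stretch with the most differences inside 1 exon was taken.
AT1G05240, chr1:1521202-1521261, plus strand: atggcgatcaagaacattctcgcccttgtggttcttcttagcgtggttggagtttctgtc
PRX2, chr1:1527110-1527169, minus strand: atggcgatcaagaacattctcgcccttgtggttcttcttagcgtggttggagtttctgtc
AT2G38380, chr2:16076550-16076609, plus strand: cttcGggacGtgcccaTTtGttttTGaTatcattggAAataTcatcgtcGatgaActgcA
PER23 (AT2G38390), chr2:16079833-16079892, plus strand: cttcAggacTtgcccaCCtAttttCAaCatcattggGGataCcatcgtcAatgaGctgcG
PER50 (AT4G37520), chr4:17632322-17632381, plus strand: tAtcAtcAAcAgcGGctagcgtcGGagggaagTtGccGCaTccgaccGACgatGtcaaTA
AT4G37530, chr4:17635424-17635483, plus strand: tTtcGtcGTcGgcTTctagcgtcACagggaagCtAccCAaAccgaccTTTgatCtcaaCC
PRX33 (AT3G49110), chr3:18202540-18202599, plus strand: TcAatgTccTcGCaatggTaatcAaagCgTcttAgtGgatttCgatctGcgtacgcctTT
PRX34 (AT3G49120), chr3:18209690-18209749, plus strand: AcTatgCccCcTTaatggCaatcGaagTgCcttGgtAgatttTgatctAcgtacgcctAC

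Coding identity was 90.6% for AT2G38380 and PER23, 92.4% for PER50 and AT4G37530, and 90.4% for PRX33 and PRX34. No stretch as long as a sequencing read was shared between the transcripts of AT2G38380 and PER23 or of PER50 and AT4G37530, and 0.751% of the stretches of PRX33 occurred in PRX34, so reads of full length from these copies differ in sequence. In contrast, 58.5% of the stretches of AT1G05240 and 100% of those of PRX2 occurred in the other gene, and the values of both are uncertain. The same holds in part where a neighbouring gene overlaps a peroxidase, as AT5G40153 does for 13.1% of AT5G40150 and AT4G26020 for 3.36% of AT4G26010, since the sources used here do not state whether counting used the strand.

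The peroxidases spanned a wide range of levels in these roots. Per kilobase of exon and averaged over the 18 libraries, PRXR1 (AT4G21960) had the highest level, at 15291 normalized counts per kb, followed by AT3G32980 at 9755, AT2G37130 at 6565, PRX34 at 5189, AT4G30170 at 4969 and AT5G64100 at 4581 normalized counts per kb. These 6 genes held 57.8% to 66.9% of the normalized counts summed over the 59 genes with a row in a library. At the low end, 10 of the 59 genes with a row were under 10 normalized counts per kb, among them AT1G05240 and PRX2. The summed normalized counts of the 59 genes made up 1.06% to 1.09% of all normalized counts in lpcat lysoPAF roots, against 1.15% to 1.24% in WT lysoPAF roots. On control medium the share was 1.33%, 1.00% and 1.34% in lpcat replicates 1, 2 and 3, against no more than 1.13% in WT, so that replicate 2 alone lay under WT.

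**Figure D1:**
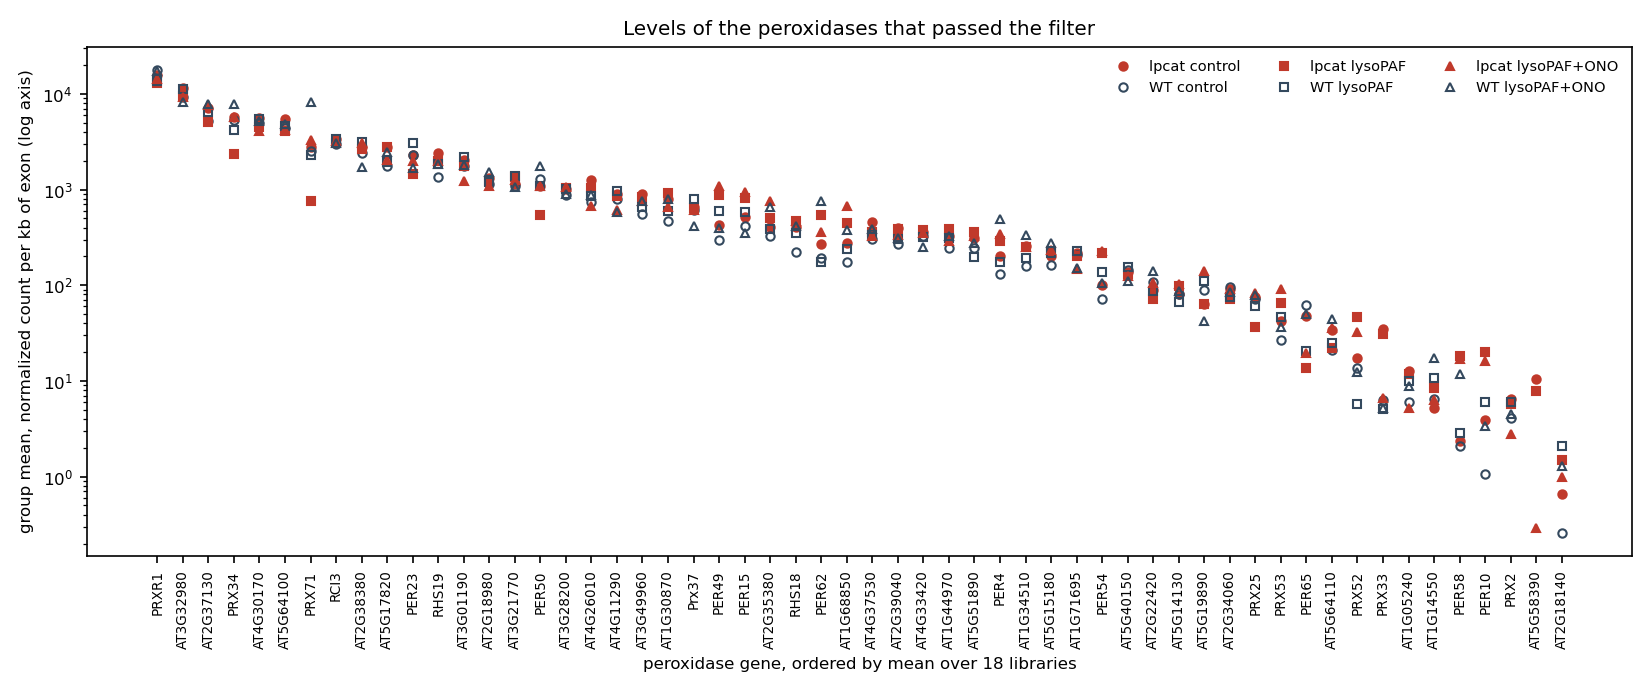
Group means of the 56 tested peroxidases in normalized counts per kb of exon (vertical log axis), ordered by the mean over 18 libraries; filled symbols are lpcat, open symbols WT, and the symbol shape is the medium. Group means of PRX71 run from 766 normalized counts per kb in lpcat on lysoPAF up to 8289 in WT on lysoPAF+ONO.

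On control medium, the comparison that shows the mutation without any added lipid, 11 of the 56 peroxidases were called higher in lpcat roots relative to WT and 0 lower by limma on log2(normalized count + 1), with Benjamini-Hochberg adjustment over all 23760 rows and a call at an adjusted p under 0.05. That is 19.6% of the peroxidases, against 2.24% of all rows called higher and 0.53% called lower. Here and below, all rows means any with at least 5 reads over all libraries, not matched to the peroxidases for level. The median log2 fold change was 0.28 over the peroxidases and -0.01 over all rows. At an unadjusted limma p under 0.05, 26 of the 56 peroxidases differed, against 3937 of the 23760 rows.

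The peroxidases that rose on control medium included those annotated for root hairs. RHS18 (AT5G22410, root hair specific 18) had 607, 480.3 and 448 normalized counts in lpcat roots, against 292, 298 and 262 in WT roots, on the log2 scale a difference of 0.84 ± 0.16 (SE; adjusted p from limma, 0.00705). RHS19 (AT5G67400, root hair specific 19) had 3356, 2274 and 3648 in lpcat and 1595, 1671 and 2011 in WT (0.79 ± 0.14, adjusted p = 0.0041). AT4G26010, known from root hairs, had 2122, 1469 and 2659 in lpcat and 1240.1, 1180.4 and 1284 in WT (0.71 ± 0.13, adjusted p = 0.00529). All lpcat libraries lay above all WT libraries for these 3 genes, as for 19 of the 56 peroxidases in this comparison. The share of all rows without overlap was not computed, here or below. In RHS19 and AT4G26010 replicate 2 was the lowest of the lpcat libraries. AT3G49960, annotated as enriched in root hair cells, rose as well, with 1392, 819 and 1579 normalized counts in lpcat against 806, 735 and 784 in WT (0.65 ± 0.16, adjusted p = 0.0322). The remaining root hair gene, AT1G05240, had 21.8, 21.8 and 51.0 in lpcat and 10.3, 16.3 and 17.96 in WT and did not pass (0.96 ± 0.48, adjusted p = 0.334).

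**Figure D2:**
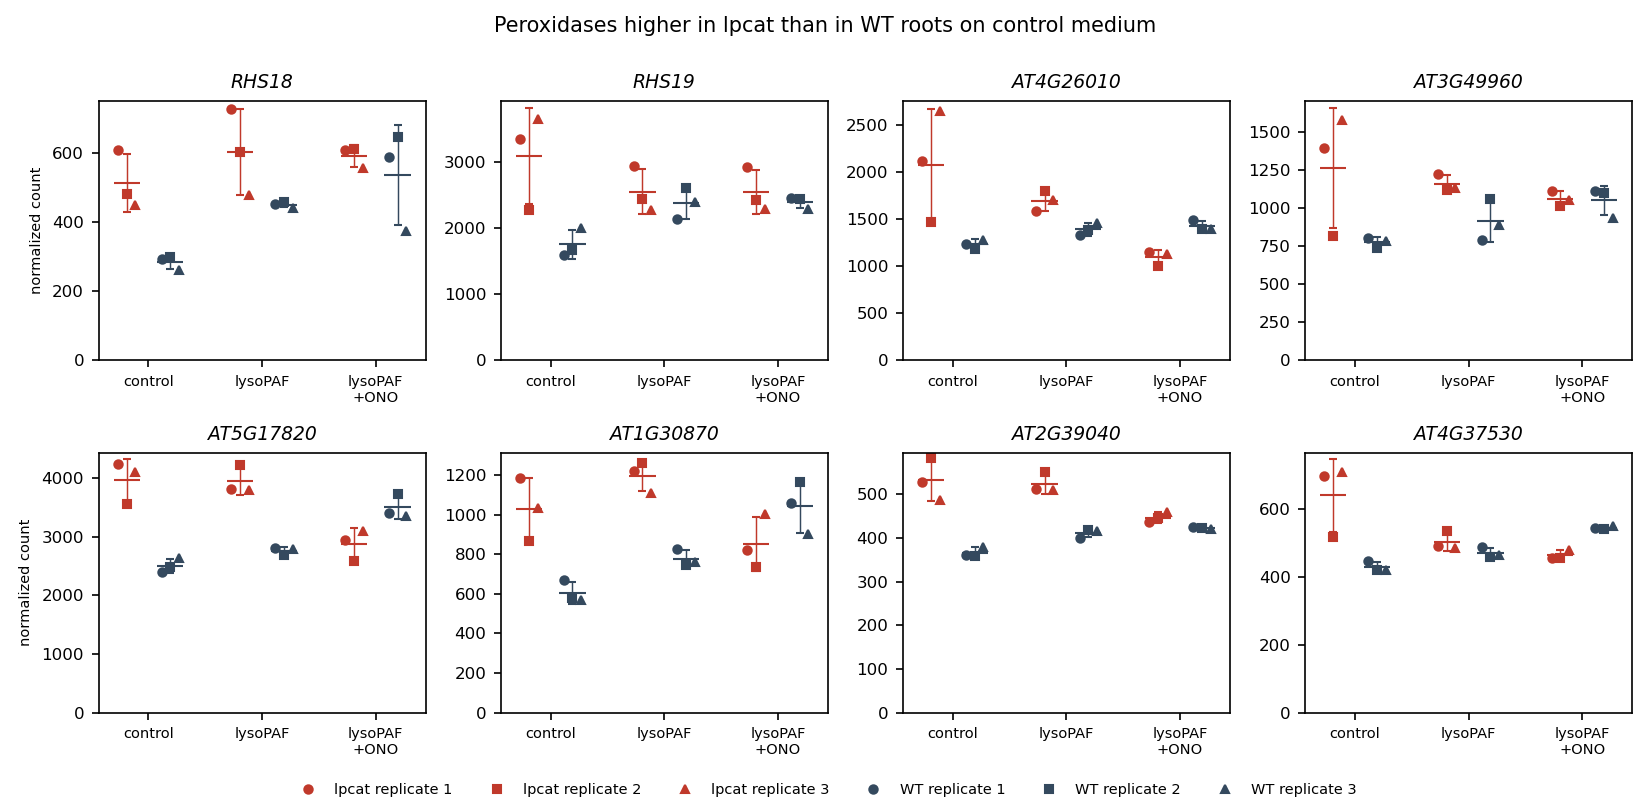
Normalized counts of 8 of the 11 peroxidases that were higher in lpcat on control medium, in every library (circle, square and triangle for replicates 1, 2 and 3; lpcat red and left, WT dark and right within each medium); horizontal lines are group means and bars the SD (n = 3). On control medium every lpcat symbol lies above every WT symbol. In RHS19, AT4G26010, AT3G49960, AT5G17820, AT1G30870 and AT4G37530 the square of lpcat replicate 2 is the lowest of the lpcat symbols there.

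The other members of the set follow, and where in the root they act was not tested. AT5G17820, known as a target that UPB1 represses, had 4246, 3561 and 4106 normalized counts in lpcat roots, against 2396, 2484 and 2634 in WT roots (0.66 ± 0.09, adjusted p = 0.000152). AT1G30870 had 1185, 869.5 and 1033 in lpcat and 668, 577 and 569 in WT (0.76 ± 0.12, adjusted p = 0.00129). AT1G44970, known from the endodermis, had 475, 546 and 449 in lpcat and 342, 359 and 391 in WT (0.43 ± 0.10, adjusted p = 0.027). PER4 (AT1G14540) had 222, 343 and 204 in lpcat and 177, 155 and 161 in WT (0.60 ± 0.15, adjusted p = 0.035), and there replicate 2 was the highest lpcat library. The last 3 of the 11, AT2G39040, AT4G37530 and AT1G34510, had log2 fold changes of 0.54, 0.56 and 0.67. The endodermal RCI3 (AT1G05260, rare cold inducible gene 3) had 4614, 3885 and 4059 in lpcat and 3708, 3789.7 and 3861 in WT and did not pass (0.14 ± 0.08, adjusted p = 0.386).

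Without lpcat control replicate 2, 21 peroxidases were higher and 0 were lower in lpcat on control medium, against 4.61% of all rows higher and 2.45% lower. All of the 11 but PER4 were called again, PER4 then being at 0.37 on the log2 scale (adjusted p = 0.0598 by limma). The 11 genes added included abundant ones: AT2G37130 (0.68), AT3G32980 (0.48), PRX34 (0.47), AT5G64100 (0.46) and PRX71 (0.57), with log2 fold changes in parentheses. PRX33, one of the copies whose sequence is given above, had 83.9, 3.80 and 77.1 normalized counts in lpcat control libraries, against 7.12, 14.4 and 7.98 in WT, so that replicate 2 was under the whole WT range and replicates 1 and 3 far over it. AT5G58390 showed the same split, with 21.8, 0 and 22.4 normalized counts in lpcat control libraries and 0 in all 3 WT control libraries. Without WT control replicate 2, the total of 11 was 7. Of the 11, 7 stayed called whichever single library was left out: RHS18, RHS19, AT4G26010, AT5G17820, AT1G30870, AT2G39040 and AT4G37530. The call of AT3G49960 was lost in 5 of 6 such fits, with an adjusted p of up to 0.118 without WT control replicate 2, that of PER4 in 4 (0.123 without WT control replicate 2), that of AT1G34510 in 4 (0.0761 without WT control replicate 2) and that of AT1G44970 in 2 (0.107 without WT control replicate 1).

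Marker genes of cell types moved in the same comparison. Of 5 root hair markers 4 were higher in lpcat on control medium (COBL9, EXPA7, EXPA18 and ADF8, log2 fold changes 0.48 to 0.67) and 0 lower, their summed normalized counts being 5384 to 8899 in lpcat and 3936 to 5127 in WT. Of 6 endodermis markers 4 were higher and 0 lower, with sums of 6525 to 6786 in lpcat and 4549 to 4804 in WT. Of 5 xylem markers 0 were called by limma, with sums of 3428 to 4325 in lpcat and 2972 to 3172 in WT. Without lpcat control replicate 2, all 5 root hair markers, LRX1 included (1.02), 4 endodermis markers and 0 xylem markers were higher. Their part in the peroxidase result was not tested.

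Among genes that act with the peroxidases, those of superoxide production and of root hair transcription also differed on control medium. Of 8 tested RBOH genes 3 were higher and 0 lower: RHD2, the NADPH oxidase of root hair growth (0.58), RBOHD (0.38) and AT1G19230 (0.67), with log2 fold changes in parentheses. UPB1 had 51.8, 94.0 and 74.7 normalized counts in lpcat roots, against 120.3, 115 and 117 in WT roots, -0.71 ± 0.19 on the log2 scale (adjusted p = 0.0467 by limma). RSL2, a basic helix-loop-helix factor of root hair growth, had 240.4, 177 and 275 in lpcat and 127, 139 and 122 in WT (0.81 ± 0.17, adjusted p = 0.0101), while RHD6, RSL4 and MYB36 were not called. The groups did not overlap for either gene, and without lpcat control replicate 2 the log2 fold changes were -0.90 for UPB1 and 0.99 for RSL2, both still called. Without that library 5 RBOH genes were higher and 0 lower, RBOH F (0.33) and AT4G25090 (0.44) being added. The lignin laccases IRX12 (0.36) and LAC11 (0.83) of 3 were higher as well, while 0 of 6 tested superoxide dismutases and 0 of 9 tested catalases and ascorbate peroxidases passed in limma. Without lpcat control replicate 2 these counts were the same, 2 laccases and 0 of the others.

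With lysoPAF in the medium, 13 peroxidases were called higher in lpcat roots relative to WT and 4 lower, that is 23.2% and 7.14% of the 56, against 6.56% and 4.63% of all rows. The median log2 fold change was 0.06 over the peroxidases and 0.00 over all rows. The set of called genes was another than on control medium: 5 of the 11 genes above (PER4, AT1G30870, AT1G44970, AT2G39040 and AT5G17820) passed again. The root hair peroxidases RHS18, RHS19 and AT4G26010 did not, with log2 fold changes of 0.40, 0.10 and 0.29. A difference between these media is tested by the interaction given below, which 0 of the 56 passed with all libraries. Without lpcat control replicate 2, 6 had a positive and 17 a negative interaction.

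Among the peroxidases with the largest rises under lysoPAF, PRX52 (AT5G05340), known for a part in lignin formation, had 68.6, 65.4 and 48.2 normalized counts in lpcat roots, against 3.36, 6.62 and 12.6 in WT roots (2.99 ± 0.50, adjusted p = 0.000858). PER58 (AT5G19880) had 20.2, 31.2 and 17.0 in lpcat and 1.68, 4.73 and 4.21 in WT (2.42 ± 0.57, adjusted p = 0.00941). Both genes had few counts in WT roots on lysoPAF, and every lpcat library lay above all WT libraries. PER62 (AT5G39580) had 572, 823 and 695 in lpcat and 234, 212 and 232 in WT (1.61 ± 0.25, adjusted p = 0.000414). AT5G51890, annotated for the lignification of tracheary elements, had 551, 415 and 382 in lpcat and 241, 229 and 273 in WT (0.84 ± 0.15, adjusted p = 0.00125), and AT1G68850 had 507, 661 and 623 in lpcat and 337, 304 and 326 in WT (0.88 ± 0.22, adjusted p = 0.0135). The groups did not overlap for any of these 5 genes, as for 38 of the 56 peroxidases in this comparison, called or not. AT5G58390 was also called, at 22.0, 2.01 and 8.50 normalized counts in lpcat and 0 in every WT library of that medium. The other genes called higher were PER4 (0.71), PER54 (0.66), AT1G30870 (0.62), AT5G17820 (0.51), PER15 (0.47), AT2G39040 (0.35) and AT1G44970 (0.33), with log2 fold changes in parentheses.

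The 4 peroxidases that were lower included some of the more abundant ones. PRX71 (AT5G64120), a wall-bound peroxidase annotated for lignification, had 955, 978 and 1151 normalized counts in lpcat roots, against 3007, 3067 and 3222 in WT roots (-1.59 ± 0.35, adjusted p = 0.00561). PER50 had 762, 703 and 762 in lpcat and 1539, 1563 and 1460.4 in WT (-1.03 ± 0.19, adjusted p = 0.00134), and PER23 had 2125, 1928 and 2048 in lpcat and 4767, 3810.5 and 4194 in WT (-1.06 ± 0.19, adjusted p = 0.00131). AT3G01190 fell too, with 2321, 2502 and 2340.3 in lpcat and 3282, 2763 and 2967 in WT (-0.33 ± 0.08, adjusted p = 0.0123). PRX34 had 3446, 3604 and 3711 in lpcat and 6382, 6365 and 6408 in WT. Its groups did not overlap, but it did not pass (-0.83 ± 0.29, adjusted p = 0.0695). The spread in that fit includes lpcat control replicate 2.

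**Figure D3:**
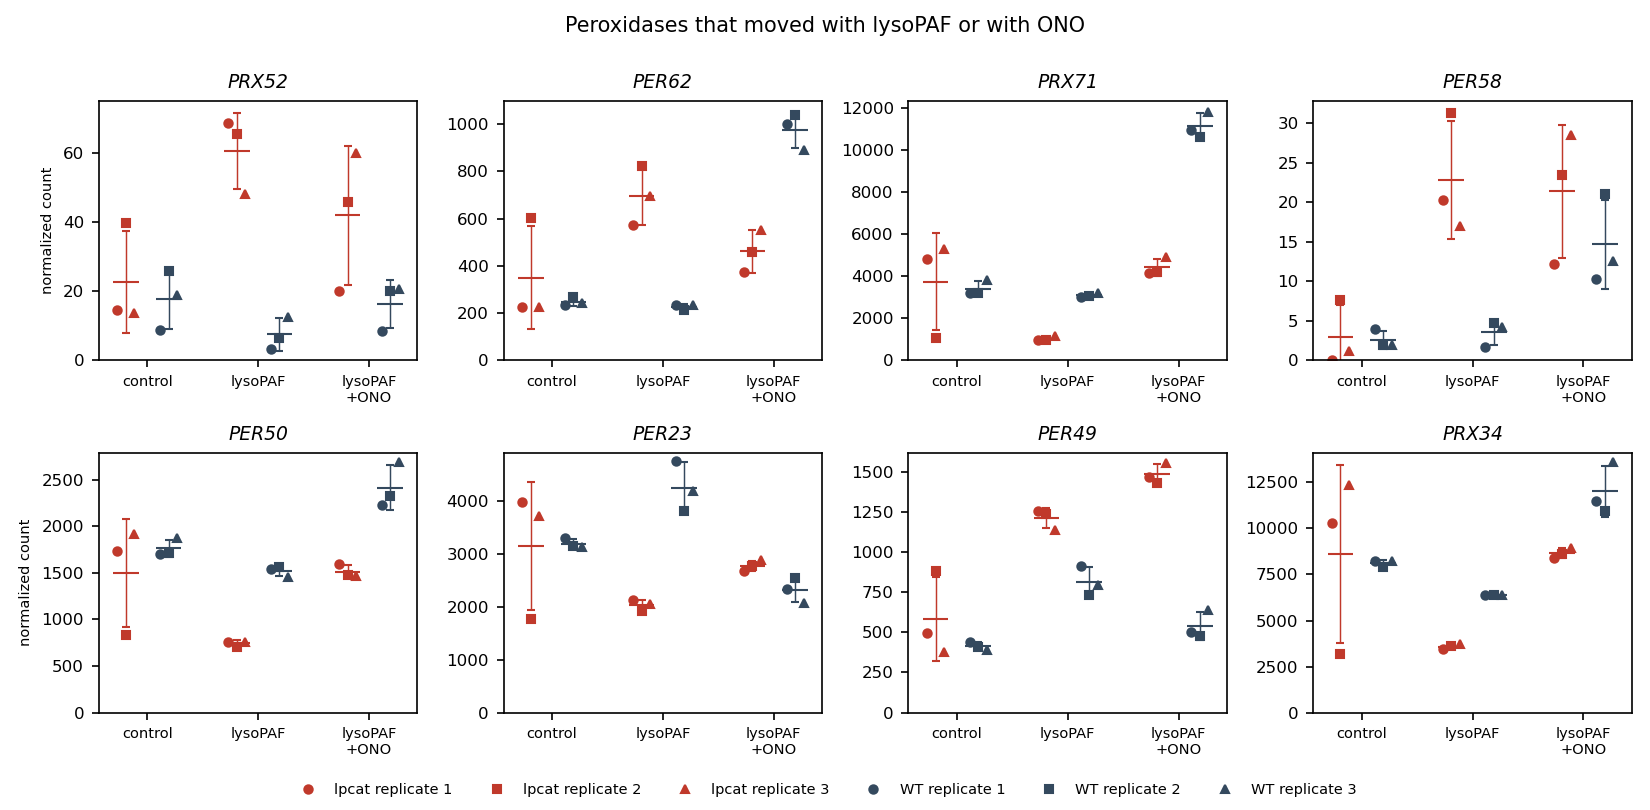
Normalized counts of 8 peroxidases in every library, drawn as in the plot of the control-medium set (lpcat red and left, WT dark and right within each medium; lines are means and bars the SD, n = 3). PRX71, PER50 and PRX34 are low in the lpcat lysoPAF libraries and in the square of lpcat control replicate 2, and PER62 is high in lpcat on lysoPAF but in WT on lysoPAF+ONO.

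Of several neighbouring pairs only one copy was called in this comparison, and the difference between the copies was not tested. While PER50 fell, its neighbour AT4G37530 had 489, 534 and 484 normalized counts in lpcat and 487, 457 and 465 in WT and did not pass (0.10 ± 0.09, adjusted p = 0.595), although it had risen on control medium. While PER23 fell, AT2G38380 had 4994, 4137 and 4053 in lpcat and 5435, 5288 and 5035 in WT and did not pass (-0.26 ± 0.09, adjusted p = 0.0811). PER54 was called and its neighbour PRX53 was not (0.43 ± 0.22, adjusted p = 0.245). All 5 xylem markers were higher in lpcat on lysoPAF, with sums of 3828 to 4615 in lpcat and 2615 to 2777 in WT, and so were all 3 laccases of lignin, LAC11 most (1.20); 2 of 5 root hair and 1 of 6 endodermis markers were higher. Their part in the peroxidase result was not tested. Without WT lysoPAF replicate 1, the total of 17 was 11. PRX52, PER62, AT5G51890, PRX71, PER50 and PER23 were among the 10 that stayed called whichever single library was left out. The call of PER15 was lost whichever library was left out (adjusted p of up to 0.159, without WT lysoPAF replicate 2), and those of PER54 (up to 0.126, without WT lysoPAF replicate 2) and AT1G44970 (up to 0.14, without lpcat lysoPAF replicate 2) in 5 of 6 fits. The call of PER58 was lost without lpcat lysoPAF replicate 2 or WT lysoPAF replicate 1 (adjusted p = 0.0543 and 0.0565), that of AT1G68850 in 3 fits (up to 0.0663, without lpcat lysoPAF replicate 2), that of AT3G01190 in 2 (up to 0.0716, without WT lysoPAF replicate 1) and that of AT5G58390 in 5 (up to 0.116, without lpcat lysoPAF replicate 1).

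With lysoPAF and ONO together, 9 peroxidases were called higher in lpcat roots relative to WT and 4 lower, 16.1% and 7.14% of the 56, against 2.13% and 1.14% of all rows. PER49 (AT4G36430) had 1466, 1431 and 1555 normalized counts in lpcat roots, against 499, 479 and 638 in WT roots (1.47 ± 0.19, adjusted p = 0.000153). PER15 (AT2G18150) had 1231, 1299 and 1416 in lpcat and 495, 456 and 521 in WT (1.42 ± 0.15, adjusted p = 1.32e-05). The stress-related PRX53 (AT5G06720), annotated for the wound response, had 131, 98.2 and 143 in lpcat and 38.4, 49.5 and 60.7 in WT (1.31 ± 0.22, adjusted p = 0.00268), and its neighbour PER54 (AT5G06730) had 328, 338 and 311 in lpcat and 157, 133 and 165 in WT (1.10 ± 0.18, adjusted p = 0.00212). In these 4 genes the groups did not overlap, as in 30 of the 56 peroxidases in this comparison, called or not. AT2G38380 rose, with 5443, 4854 and 4872 in lpcat and 2808, 2683 and 3218 in WT (0.80 ± 0.09, adjusted p = 5.13e-05), while its copy PER23 had 2689, 2766 and 2884 in lpcat and 2341, 2553 and 2079 in WT and did not pass (0.26 ± 0.19, adjusted p = 0.527).

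In 2 of the genes that were higher, 1 WT library lay far from the other two. AT5G19890 had 99.2, 252 and 222 normalized counts in lpcat lysoPAF+ONO libraries, against 18.7, 20.0 and 136 in WT (2.21 ± 0.56, adjusted p = 0.0358), so WT replicate 3 was inside the lpcat range. Prx37 (AT4G08770), known from vascular bundles, had 815, 926 and 841 in lpcat and 437, 403 and 886 in WT (0.67 ± 0.18, adjusted p = 0.0467), again with WT replicate 3 inside the lpcat range. AT1G68850 (0.86) and AT4G33420 (0.48) complete the 9, with log2 fold changes in parentheses. The call of AT1G68850 was lost whichever library was left out (adjusted p of up to 0.152, without lpcat lysoPAF+ONO replicate 2). Leaving out 1 library ended the call of AT5G19890 in 4 of 6 fits and that of Prx37 in 5: without WT lysoPAF+ONO replicate 1 their log2 fold changes were 1.73 (adjusted p = 0.178) and 0.52 (adjusted p = 0.213).

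The peroxidases that were lower in lpcat with lysoPAF and ONO were PRX71, PER62, AT3G01190 and AT2G18980. PRX71 had 4174, 4186 and 4895 normalized counts in lpcat and 10963, 10614 and 11796 in WT (-1.33 ± 0.35, adjusted p = 0.0396). PER62 had 373, 459 and 553 in lpcat and 1000.0, 1037 and 889 in WT (-1.09 ± 0.25, adjusted p = 0.0197), so it was the 1 peroxidase called in opposite directions in different media. AT3G01190 had 1685, 1589 and 1731 in lpcat and 2485, 2537 and 2287 in WT (-0.55 ± 0.08, adjusted p = 0.000768), and AT2G18980 had 1217, 1242 and 1429.9 in lpcat and 1827, 1871 and 1772 in WT (-0.50 ± 0.07, adjusted p = 0.000605). Over the 3 media, 30 of the 56 peroxidases differed between lpcat and WT in at least 1 medium, and 0 were higher in all 3 or lower in all 3. The matching shares of all rows were not computed, so these counts have no background. Without lpcat lysoPAF+ONO replicate 2, WT lysoPAF+ONO replicate 1 or WT lysoPAF+ONO replicate 2, the total of 13 was 8 each time. The groups of PRX71 and PER62 did not overlap, but their calls were lost in fits without 1 library. That of PRX71 was lost whichever of the 6 was left out (limma adjusted p of up to 0.151, without lpcat lysoPAF+ONO replicate 2). That of PER62 was lost in 4 of 6 fits (up to 0.0891, without lpcat lysoPAF+ONO replicate 1). The spread in those fits includes lpcat control replicate 2. There PRX71 had 1080.3 normalized counts, against 4831 and 5304 in lpcat control replicates 1 and 3, and PER62 had 601, against 227 and 224. Of the xylem markers CESA4 and CESA7 were higher in lpcat on this medium and no root hair or endodermis marker was called, and their part in the peroxidase result was not tested.

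**Figure D4:**
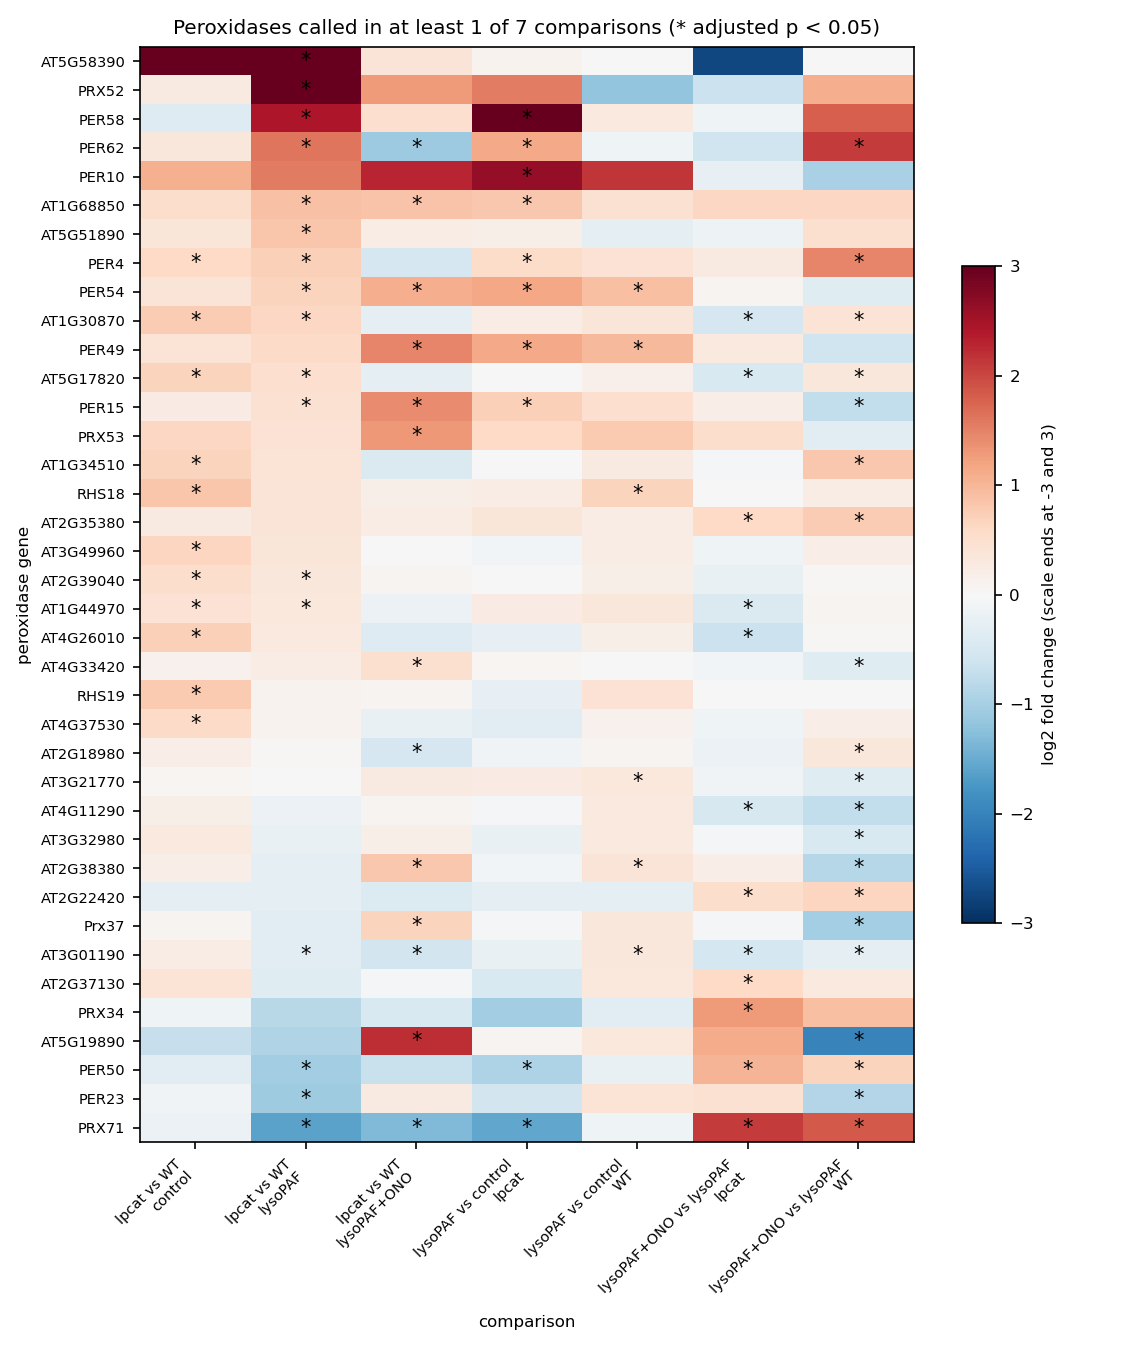
Log2 fold changes (colour, scale ending at -3 and 3) of the 38 peroxidases called in at least 1 of 7 comparisons (columns), ordered by the lpcat against WT comparison on lysoPAF; an asterisk marks a limma adjusted p under 0.05. The column for control medium holds 11 asterisks, all on red cells; PER62 is red for lysoPAF and blue for lysoPAF+ONO in lpcat against WT, and PRX71 is blue in both and red where ONO was added. AT5G58390 on control medium and on lysoPAF, and PER58 for lysoPAF against control in lpcat, lie past the end of the scale.

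The response of each genotype to lysoPAF was set against its own control medium; these comparisons share the control and lysoPAF libraries with those above. In lpcat roots 8 peroxidases were higher on lysoPAF than on control medium and 2 were lower, 14.3% and 3.57% of the 56, against 1.94% and 1.57% of all rows. In WT roots 6 were higher and 0 lower, 10.7% of the 56, against 1.58% of all rows higher and 0.901% lower. PER49 and PER54 rose in both genotypes. PER49 had 1258, 1235 and 1139 normalized counts on lysoPAF and 497, 879 and 377 on control medium in lpcat (1.14 ± 0.19, adjusted p = 0.0107), and 913, 729.9 and 796 on lysoPAF and 438, 411 and 389 on control medium in WT (0.97 ± 0.19, adjusted p = 0.0109). Replicate 2 of the lpcat control group was the highest of the control libraries and still under all lysoPAF libraries of its genotype. PER54 had log2 fold changes of 1.17 in lpcat and 0.91 in WT.

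In lpcat, lysoPAF was accompanied by a rise of PER58, with 20.2, 31.2 and 17.0 normalized counts on lysoPAF and 0, 7.59 and 1.24 on control medium (3.11 ± 0.57, adjusted p = 0.0137), and of PER10 (AT1G49570), with 43.1, 22.2 and 24.6 on lysoPAF and 1.04, 14.2 and 2.49 on control medium (2.64 ± 0.63, adjusted p = 0.0293). In both genes lpcat control replicate 2 lay between the other control libraries and the lysoPAF libraries. The 2 peroxidases that fell in lpcat were PRX71, with 955, 978 and 1151 on lysoPAF and 4831, 1080.3 and 5304 on control medium (-1.56 ± 0.35, adjusted p = 0.0247), and PER50, with 762, 703 and 762 on lysoPAF and 1735, 836 and 1917 on control medium (-0.92 ± 0.19, adjusted p = 0.0179). For PRX71 replicate 2 of the control group lay among the lysoPAF libraries, and without that library the fall was -2.30 ± 0.10. PER62 (1.14), PER15 (0.71), AT1G68850 (0.81) and PER4 (0.54) also rose in lpcat, with log2 fold changes in parentheses. In WT, RHS18 (0.66), AT2G38380 (0.38), AT3G01190 (0.34) and AT3G21770 (0.32) rose besides PER49 and PER54.

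The count in lpcat depended on single libraries. Without lpcat control replicate 2, 13 peroxidases were higher and 19 lower on lysoPAF in lpcat roots, against 8.86% and 9.8% of all rows; all 10 of the calls above were among them. Added were falls of PRX34 (-1.65), PER65 (AT5G47000, -2.26), PRX25 (AT2G41480, annotated for lignification, -1.45), PER23 (-0.92), AT2G37130 (-0.74), AT4G26010 (-0.48) and RHS19 (-0.46), with log2 fold changes in parentheses. PRX34 had 3446, 3604 and 3711 normalized counts on lysoPAF and 10309, 3187 and 12349.7 on control medium in lpcat, and replicate 2 of the control group lay under all lysoPAF libraries. The total of 10 was 0 without lpcat control replicate 1, lpcat control replicate 3 or lpcat lysoPAF replicate 3, 1 without lpcat lysoPAF replicate 2 and 5 without lpcat lysoPAF replicate 1. In WT the total of 6 was 0 to 3 in 6 such fits, each leaving out 1 library: 0 without WT control replicate 3 or WT lysoPAF replicate 1, 1 without WT lysoPAF replicate 3, 2 without WT control replicate 1 or 2, and 3 without WT lysoPAF replicate 2.

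**Figure D5:**
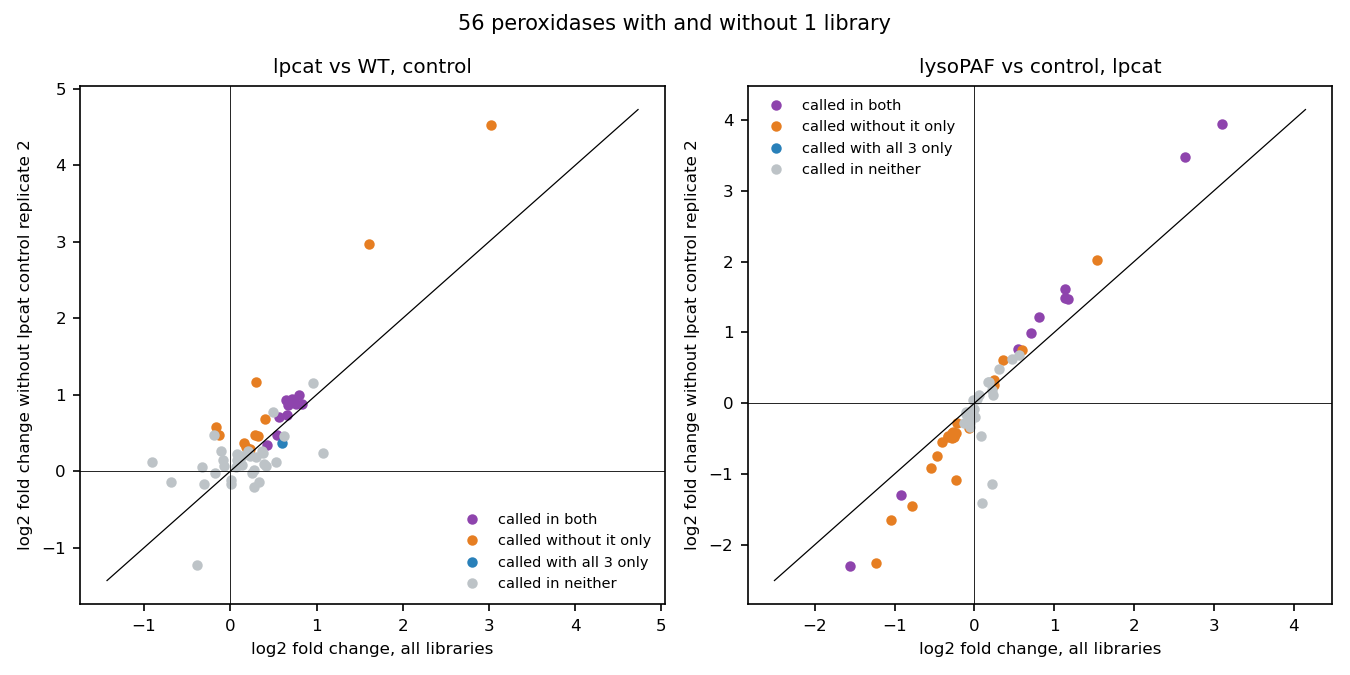
Log2 fold changes of the 56 peroxidases without lpcat control replicate 2 (vertical axis) against those with all libraries (horizontal axis), for lpcat against WT on control medium (left) and lysoPAF against control in lpcat (right); the line marks equal values and colours mark limma calls at an adjusted p under 0.05. Leaving the library out gave 21 calls against 11 on the left and 32 calls against 10 on the right, with the called points farther from 0 in most cases.

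Whether lysoPAF acted differently in the genotypes was tested as an interaction. With all libraries 0 of the 56 peroxidases passed, against 0.0547% of all rows by limma, and 18 were at an unadjusted p under 0.05; the edgeR quasi-likelihood test also gave 0 and DESeq2 gave 6. Without lpcat control replicate 2, 6 peroxidases had a positive interaction and 17 a negative one, against 4.11% and 5.38% of all rows. In that fit the interaction was 1.74 for PER62 (limma adjusted p = 5.35e-07), -2.17 for PRX71 (1.97e-10), -1.33 for PER23 (9.62e-08), -1.30 for PRX34 (2.46e-07) and 3.19 for PRX52 (0.00226), each on the log2 scale as the lysoPAF effect in lpcat minus that in WT. Of the root hair genes, RHS19 (-0.90) and AT4G26010 (-0.66) were among the negative ones. The count for this interaction thus changed with the library left out and with the test.

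The addition of ONO to lysoPAF changed 12 peroxidases in lpcat roots, 6 higher and 6 lower (10.7% each way, against 3.55% and 2.51% of all rows), and 20 in WT roots, 10 higher and 10 lower (17.9% each way, against 3.72% and 1.77% of all rows). In both genotypes PRX71, PER50, AT2G22420 and AT2G35380 rose and AT3G01190 and AT4G11290 fell. PRX71 had 4174, 4186 and 4895 normalized counts on lysoPAF+ONO and 955, 978 and 1151 on lysoPAF in lpcat (2.10 ± 0.35, adjusted p = 0.00142), and 10963, 10614 and 11796 on lysoPAF+ONO and 3007, 3067 and 3222 on lysoPAF in WT (1.84 ± 0.35, adjusted p = 0.00296). PER50 had 1591, 1481 and 1468 on lysoPAF+ONO and 762, 703 and 762 on lysoPAF in lpcat (1.03 ± 0.19, adjusted p = 0.00275), with 2229.7, 2324 and 2689 on lysoPAF+ONO and 1539, 1563 and 1460.4 on lysoPAF in WT (0.66 ± 0.19, adjusted p = 0.0411). For both genes the group mean was lowest in lpcat on lysoPAF and highest in WT on lysoPAF+ONO. The rise of PER50 in WT lost its call whichever of the 6 libraries was left out (adjusted p of up to 0.139, without WT lysoPAF+ONO replicate 3), while in lpcat it was called in every such fit, as was PRX71 in both genotypes. Of the others called in both, AT3G01190 lost its WT call in 5 of 6 fits (up to 0.172, without WT lysoPAF replicate 1), AT2G22420 and AT2G35380 their lpcat calls in 4 each (up to 0.0812 without lpcat lysoPAF+ONO replicate 1, and 0.121 without lpcat lysoPAF replicate 1), and AT4G11290 its lpcat call in 1 (0.0501, without lpcat lysoPAF replicate 1).

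In lpcat roots PRX34, a wall peroxidase known for the oxidative burst and cell elongation, rose with ONO, at 8414, 8608 and 8928 normalized counts on lysoPAF+ONO and 3446, 3604 and 3711 on lysoPAF (1.27 ± 0.29, adjusted p = 0.0131), and AT2G37130 rose too (0.59). Those that fell in lpcat were AT4G26010, with 1158, 1002 and 1130.2 on lysoPAF+ONO and 1593, 1806 and 1704 on lysoPAF (-0.63 ± 0.13, adjusted p = 0.0079), AT1G30870 (-0.50), AT5G17820 (-0.46) and AT1G44970 (-0.43), besides AT3G01190 and AT4G11290, an endodermal member that UPB1 is known to repress (-0.48). Of the endodermis markers 5 of 6 fell in the same comparison, with sums of 4478 to 4888 on lysoPAF+ONO and 6217 to 7766 on lysoPAF in lpcat, and 1 of 5 root hair markers fell. Their part in the peroxidase result was not tested. The factor RSL2 fell in this comparison as well (-0.69), and UPB1 was not called (0.27). The calls of AT4G26010 and PRX34 were lost without lpcat lysoPAF+ONO replicate 2 (adjusted p = 0.0536 and 0.0518). The total of 12 was 7 without lpcat lysoPAF replicate 1 and 5 without lpcat lysoPAF+ONO replicate 2.

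In WT roots PER62 rose most with ONO, at 1000.0, 1037 and 889 normalized counts on lysoPAF+ONO and 234, 212 and 232 on lysoPAF (2.10 ± 0.25, adjusted p = 1.88e-05). PER4 had 637, 629 and 587 on lysoPAF+ONO and 231, 213 and 221 on lysoPAF (1.48 ± 0.15, adjusted p = 3.53e-06), and AT1G34510 had 424, 469 and 362 on lysoPAF+ONO and 230.2, 201 and 288 on lysoPAF (0.81 ± 0.15, adjusted p = 0.00281). The largest falls in WT were in AT5G19890, with 18.7, 20.0 and 136 on lysoPAF+ONO and 137, 177 and 147 on lysoPAF (-2.00 ± 0.56, adjusted p = 0.0422), in Prx37, with 437, 403 and 886 on lysoPAF+ONO and 1051, 1181 and 1071 on lysoPAF (-1.03 ± 0.18, adjusted p = 0.0016), and in the neighbours PER23 (-0.87) and AT2G38380 (-0.86). WT lysoPAF+ONO replicate 3 lay apart from replicates 1 and 2 in both AT5G19890 and Prx37, and the call of AT5G19890 was lost in 5 of 6 fits without 1 library (adjusted p of up to 0.203, without WT lysoPAF+ONO replicate 1). Of the root hair, endodermis and xylem markers only COBL9 was called in this comparison, rising by 0.42 on the log2 scale. The total of 20 was 11 without WT lysoPAF replicate 1, and 13 without WT lysoPAF replicate 3, WT lysoPAF+ONO replicate 1 or WT lysoPAF+ONO replicate 2.

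The effect of ONO differed between the genotypes for 8 peroxidases, 14.3% of the 56, against 1.26% of all rows, by the limma interaction, which is the effect of ONO in lpcat minus that in WT on the log2 scale. PER62 had 373, 459 and 553 normalized counts on lysoPAF+ONO and 572, 823 and 695 on lysoPAF in lpcat, where ONO gave a log2 fold change of -0.59 that did not pass (adjusted p = 0.174), against the rise of 2.10 in WT, an interaction of -2.70 ± 0.35, adjusted p = 0.000613. AT5G17820 and AT1G30870 were called lower with ONO in lpcat and higher with it in WT, with interactions of -0.80 ± 0.12, adjusted p = 0.00308 and of -0.91 ± 0.17, adjusted p = 0.0142. AT5G17820 had 2951, 2588 and 3098 on lysoPAF+ONO and 3822, 4229 and 3797 on lysoPAF in lpcat, and 3406, 3733 and 3359 on lysoPAF+ONO and 2815, 2689 and 2788 on lysoPAF in WT. The WT rises of both genes lost their call in 5 of 6 fits without 1 library (up to 0.11 for AT5G17820 and 0.199 for AT1G30870, both without WT lysoPAF+ONO replicate 2), and the fall of AT1G30870 in lpcat in 4 (up to 0.117, without lpcat lysoPAF+ONO replicate 2). PER4 had an interaction of -1.21 ± 0.21, adjusted p = 0.0101 and AT2G18980 one of -0.52 ± 0.10, adjusted p = 0.015. Those 5 were negative. The 3 positive ones were AT2G38380 (1.07 ± 0.13, adjusted p = 0.000566), PER23 (1.32 ± 0.27, adjusted p = 0.0196) and PER15 (0.95 ± 0.21, adjusted p = 0.0309). Both copies of the pair AT2G38380 and PER23 were thus called here, and PER23 had 2689, 2766 and 2884 on lysoPAF+ONO and 2125, 1928 and 2048 on lysoPAF in lpcat, and 2341, 2553 and 2079 on lysoPAF+ONO and 4767, 3810.5 and 4194 on lysoPAF in WT. PER62, AT5G17820, PER4 and AT2G38380 stayed called whichever single library was left out, while the call of AT1G30870 was lost in 3 fits (adjusted p of up to 0.0574, without lpcat lysoPAF+ONO replicate 2), that of AT2G18980 in 4 (0.0649, without lpcat lysoPAF replicate 2), that of PER23 in 5 (0.0722, without lpcat lysoPAF replicate 2) and that of PER15 in 10 of 12 (0.0974, without WT lysoPAF+ONO replicate 2). The total of 8 was 4 without lpcat lysoPAF replicate 2, lpcat lysoPAF+ONO replicate 2 or WT lysoPAF+ONO replicate 1.

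PER62 and PRX71 are each other's closest relatives among the 60 genes, with 75.5% coding identity, and they moved in opposite directions in lpcat on lysoPAF and in the same direction in WT with ONO. The 250 bases before their annotated gene starts (RefSeq TAIR10.1, minus strand) are shown with W-boxes, the letters TTGACC or TTGACT on either strand, in capitals.
PER62, chr5:15849142-15849391: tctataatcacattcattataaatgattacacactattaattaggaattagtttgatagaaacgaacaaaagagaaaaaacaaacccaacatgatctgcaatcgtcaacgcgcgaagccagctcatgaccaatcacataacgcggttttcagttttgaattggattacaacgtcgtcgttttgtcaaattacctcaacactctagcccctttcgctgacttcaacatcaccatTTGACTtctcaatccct
PRX71, chr5:25661008-25661257: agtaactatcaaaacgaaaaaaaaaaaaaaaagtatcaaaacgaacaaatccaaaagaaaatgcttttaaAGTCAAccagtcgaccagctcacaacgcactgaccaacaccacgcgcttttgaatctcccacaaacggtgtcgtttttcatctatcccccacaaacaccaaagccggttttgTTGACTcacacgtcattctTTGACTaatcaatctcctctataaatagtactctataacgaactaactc

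The PER62 stretch held 1 W-box and the PRX71 stretch 3. In windows of 300 bases, 250 before to 50 after the gene start, 35.0% of the 60 peroxidases had a W-box, against 32.4% of 27443 protein-coding genes. The G-box CACGTG occurred in 1.67% of peroxidases and 7.68% of genes, the AC element ACCNACC in 3.33% and 7.39%, and the heat shock element GAANNTTC in 8.33% and 11.6%, on both strands. These matches describe the letters in the window only.

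By role, the 4 root hair peroxidases had 3 members higher on control medium (median log2 fold change 0.81) and 0 called in lpcat against WT on lysoPAF (0.23) or lysoPAF+ONO (-0.15); over all rows these medians were -0.01, 0.00 and 0.01. Of the 3 tested endodermal members 1 was higher in lpcat on control medium and 1 on lysoPAF, AT1G44970 both times (list medians 0.18 and -0.11). Of the 7 genes of vascular and lignifying tissue, 3 were higher and 1 lower in lpcat on lysoPAF (PER4, PRX52 and AT5G51890 against PRX71, list median 0.22), and 1 was higher and 1 lower on lysoPAF+ONO (AT4G33420 against PRX71, list median 0.05). PRX25 and AT2G22420 of this list were called between the genotypes in none of the 3 media; PRX25 had 36.0, 44.3 and 41.6 normalized counts in lpcat and 73.9, 60.5 and 70.4 in WT on lysoPAF, without overlap but not called (-0.74 ± 0.34, adjusted p = 0.188). Of the 6 genes of the oxidative burst and stress, 0 were called on control medium by limma (list median 0.36), 2 were higher on lysoPAF (PER54 and PER62, list median 0.54), and 2 were higher (PRX53 and PER54) and 1 lower (PER62) on lysoPAF+ONO (list median 0.04). On control medium without lpcat control replicate 2, the counts of members higher were 3 for root hairs, 2 for the endodermis (AT1G44970 and AT4G11290), 1 for vascular tissue (PRX71) and 3 for the burst and stress list (PRX33, PRX34 and AT5G64100). AT5G64100 and PRX33 of that list were called in none of the 7 comparisons with all libraries.

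Genes that supply or remove the substrate were called in the other media as well. In lpcat against WT on lysoPAF, RHD2 (0.37), RBOHD (0.48) and AT1G19230 (0.88) of 8 tested RBOH genes were higher and RBOHB (-0.61) was lower, and on lysoPAF+ONO RBOHD was higher (0.45) and AT4G25090 lower (-0.81), with log2 fold changes in parentheses. Of 6 superoxide dismutases 0 were higher and 2 lower on lysoPAF, CSD1 (-0.57) and CSD2 (-0.44), and CSD1 was lower on lysoPAF+ONO (-0.44). Of 9 catalases and ascorbate peroxidases only APX1 was called in lpcat against WT, higher on lysoPAF (0.54). UPB1 and RSL2, which differed on control medium, did not pass on lysoPAF (-0.07 and 0.08) or on lysoPAF+ONO (-0.10 and -0.56). With lysoPAF against control in lpcat, AT1G19230 rose (0.45) and CSD2 fell (-0.40). Without lpcat control replicate 2 both were called again, RBOHB (-0.48), AT4G25090 (-1.15), CAT2 (-0.39), CAT3 (-0.73) and RSL2 (-0.57) were lower as well, and APX2 (2.37), UPB1 (0.63), RHD6 (0.47) and RSL4 (0.44) higher. In WT, RBOH F rose (0.36). With ONO added to lysoPAF, the catalase CAT1 rose in lpcat (0.47) and in WT (0.54), and CAT3 (0.69), AT1G19230 (0.70) and LAC11 (0.73) rose in WT. In the same step APX5 (-0.62), MSD1 (-0.36) and RSL2 (-0.69) fell in lpcat and RBOHB (-0.74) fell in WT.

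Of the 56 tested peroxidases, 38 were called in at least 1 of the 7 comparisons and 18 in none, by limma. The share of all rows called in at least 1 of the 7 was not computed. AT3G01190 and PRX71 were called in 5 of the 7. Among those called in none were the most abundant member, PRXR1, which had 31238, 23272 and 32163 normalized counts in lpcat and 31249, 32149 and 33625 in WT roots on control medium, as well as RCI3, AT4G30170, AT5G64100 and PER65. PER65 did not pass, although in WT its libraries did not overlap between media, with 35.3, 39.7 and 18.9 normalized counts on lysoPAF and 88.6, 93.0 and 107 on control medium (-1.65 ± 0.51, adjusted p = 0.0925). In that comparison 38 of the 56 peroxidases were without overlap. PER65, AT3G49960, AT4G37530, AT2G39040, AT3G21770 and AT5G58390 are named here although they fell outside the rule for named genes, and were chosen after their values were seen.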

How the data were processed

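RNA from roots of lpcat and WT seedlings on 3 media was sequenced as paired reads of 101 bases, 3 libraries for each of 6 groups. Per the sample records the authors used STAR 2.4.0j for alignment to TAIR10, HTSeq 0.6.0 and StringTie 1.0.3 for assembly and counting. DESeq2 1.12.4 was used for normalization. The strand setting of the counting is not given in the sources used here. The values used are the deposited normalized counts, a signal that the authors made by dividing gene counts by size factors. Whole reads were recovered from them for 100% of 400470 values above 0 (tolerance 0.001), giving 8681898 to 16767002 reads per library; the range limits the precision of genes with few counts. Rows without a locus identifier (501, 0.0233% of reads) were not removed, and any with at least 5 reads were among the rows tested.

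The main test was limma 3.58.1 in R 4.3.3 (lmFit, eBayes with trend) on log2(normalized count + 1) over rows with at least 5 reads in all, with 1 coefficient for each of the 6 groups and Benjamini-Hochberg adjustment over 23760 rows; fold changes on this scale understate those of low genes. Calls had an adjusted p under 0.05. On the recovered reads, edgeR 4.0.16 (quasi-likelihood, TMM) and DESeq2 1.42.0 were run as alternatives, besides other pseudocounts, filters, the compared libraries alone, a fold minimum, the replicate number as a block and leaving out each library. The limma script was tested on simulated data. No libraries were counted as duplicates.

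The peroxidases and all gene lists were chosen with earlier results of these data known. Named with values were, in each comparison, up to 4 called peroxidases per direction with the largest fold change among those with a mean of at least 10 normalized counts, up to 6 called in an interaction, the 6 highest per kb and the members of 4 role lists. Sequences were read from the RefSeq TAIR10.1 genome.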

Additional observations from a re-analysis of the deposited data

Results flagged for a closer look

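For 8 peroxidases the effect of adding ONO to lysoPAF differed between lpcat and WT in the limma interaction test (log2 scale, effect in lpcat minus effect in WT). The difference was -2.70 for PER62 (adjusted p = 0.000613, fitted over all rows with limma), -1.21 for PER4 (0.0101), -0.91 for AT1G30870 (0.0142), -0.80 for AT5G17820 (0.00308) and -0.52 for AT2G18980 (0.015). It was 1.32 for PER23 (0.0196), 1.07 for AT2G38380 (0.000566) and 0.95 for PER15 (0.0309). AT1G30870 and AT5G17820 were called lower with ONO in lpcat and higher in WT, the WT calls being lost in 5 of 6 fits without 1 library for each gene.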

How the results depend on the processing

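The counts of called peroxidases changed with the libraries in the fit, the fold minimum and DESeq2. With the compared libraries alone, lpcat against WT gave 2 calls on control medium, 33 on lysoPAF and 22 on lysoPAF+ONO, lysoPAF against control gave 0 in lpcat and 21 in WT, ONO gave 20 in lpcat, and the interaction with ONO 15. With an absolute log2 fold change over 1 required as well, these counts were 0, 7 and 7 for lpcat against WT, 6 and 0 for lysoPAF in lpcat and WT, 3 and 5 for ONO in lpcat and WT, and 4 for the interaction with ONO. DESeq2 gave 16 calls for lysoPAF in lpcat, 13 for lysoPAF in WT, 6 for the interaction with lysoPAF and 13 for that with ONO. Leaving out 1 library at a time gave 7 to 21 calls on control medium, 11 to 15 on lysoPAF, 8 to 12 on lysoPAF+ONO, 0 to 32 and 0 to 3 for lysoPAF in lpcat and WT, 5 to 11 and 11 to 18 for ONO in lpcat and WT, and 0 to 23 and 4 to 11 for the interactions with lysoPAF and with ONO; where a group was left with 2 libraries, the spread was that of all groups. The edgeR fit, other pseudocounts and other filters kept every count within 1.5 times. With the compared libraries alone, lpcat control replicate 2 was in the fit only where its group was compared. The cause of these changes was not tested.

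Same-numbered libraries of different groups had correlations of their deviations from -0.37 to 0.47 (median 0.11, 45 pairs). For differently numbered libraries of different groups they ran from -0.48 to 0.41 (median -0.06, 90 pairs). As these ranges overlap, whether the numbers mark a shared batch cannot be decided from them. With the replicate number as a block, 12 peroxidases were called on control medium, 17 on lysoPAF and 15 on lysoPAF+ONO. Of 90 calls of named peroxidases, 38 were kept under every alternative other than the fold minimum, 0 reversed, and 49 were lost without at least 1 library; edgeR lost 7 and DESeq2 3. Genes with few counts, such as PER58, PRX52 and PER10, are limited by depth.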
